A study of Homo sapiens with 5 samples.

Results

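Peaks were examined in windows around 6 genes that encode repressors acting through the E-box, the short DNA element CANNTG: TWIST1, TWIST2, MSC, SNAI1, SNAI2 and ZEB1. The members were all entries of 3 peak lists that overlapped the windows, which are positions in genome build hg19. The windows ran from 19.10 to 19.21 Mb of chromosome 7 (TWIST1), 239.70 to 239.89 Mb of chromosome 2 (TWIST2), 72.70 to 72.81 Mb of chromosome 8 (MSC), 48.55 to 48.66 Mb of chromosome 20 (SNAI1), 49.78 to 49.89 Mb of chromosome 8 (SNAI2) and 31.55 to 31.87 Mb of chromosome 10 (ZEB1). They held 74 of 100703 entries, namely 29 of 46408 RH18 H3K27ac regions, 33 of 43159 RD H3K27ac regions and 12 of 11136 RH18 MYF5 peaks. RH18 and RD are established human lines from rhabdomyosarcoma, a childhood sarcoma whose cells resemble muscle precursors, of the type without a PAX fusion gene. Chromatin immunoprecipitation and sequencing was done for histone H3 acetylated at lysine 27 (H3K27ac), a mark of active enhancers and promoters, in both lines, and for the myogenic factor MYF5 in RH18. The labels name no drug or genetic change in either line. Each group was 1 library, so no value below has a replicate check, and input DNA of either line was not analysed here. The lists carry no expression values, so the lines were not checked against marker genes, and no control immunoprecipitation was analysed here for the MYF5 antibody.

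MYF5, MYOD1 and their relatives are basic helix-loop-helix (bHLH) factors that pair with E proteins, bind E-boxes and turn on muscle genes. The 6 repressors act on the same element. TWIST1 and TWIST2 are bHLH factors of mesenchyme that, in mouse cells, bind E proteins and block MyoD. MSC (musculin, also MyoR) is a bHLH repressor of undifferentiated muscle precursors, described in mouse as an inhibitor of MyoD. SNAI1 and SNAI2 (Slug) are zinc finger repressors, best known for silencing E-cadherin in epithelial-mesenchymal transition, that occupy E-boxes of muscle genes in mouse myoblasts. ZEB1 is a zinc finger and homeodomain repressor that binds E-boxes of the CACCTG kind.

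The windows of TWIST1, TWIST2 and ZEB1 held no MYF5 peak, and promoters of these genes are shown for the E-boxes they do or do not carry. RefSeq, in build GRCh38.p14, gave 1 promoter for TWIST2 and 7 for ZEB1, each of 300 bases, from 250 before to 50 after a gene start. TWIST1 and SNAI1 had no entry, and promoters of MSC and SNAI2 were not analysed here. So no promoter of a locus with a MYF5 peak stands beside these for contrast. Every CANNTG is in capitals; this pattern reads the same on both strands, so a search of either strand finds all copies.
TWIST2, chr2:238847835-238848134, plus strand: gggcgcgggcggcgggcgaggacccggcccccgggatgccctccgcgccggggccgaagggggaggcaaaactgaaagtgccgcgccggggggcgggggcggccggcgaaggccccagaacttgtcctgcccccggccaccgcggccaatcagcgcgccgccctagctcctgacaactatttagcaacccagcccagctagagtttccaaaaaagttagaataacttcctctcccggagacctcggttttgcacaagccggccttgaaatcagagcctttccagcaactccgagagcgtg
ZEB1, chr10:31318966-31319265, plus strand: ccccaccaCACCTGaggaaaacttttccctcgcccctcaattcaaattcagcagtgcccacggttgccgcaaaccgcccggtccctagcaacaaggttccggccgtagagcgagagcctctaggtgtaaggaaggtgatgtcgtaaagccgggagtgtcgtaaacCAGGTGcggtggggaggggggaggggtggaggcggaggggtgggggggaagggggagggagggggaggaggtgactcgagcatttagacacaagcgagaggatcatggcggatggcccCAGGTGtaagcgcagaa
ZEB1, chr10:31320304-31320603, plus strand: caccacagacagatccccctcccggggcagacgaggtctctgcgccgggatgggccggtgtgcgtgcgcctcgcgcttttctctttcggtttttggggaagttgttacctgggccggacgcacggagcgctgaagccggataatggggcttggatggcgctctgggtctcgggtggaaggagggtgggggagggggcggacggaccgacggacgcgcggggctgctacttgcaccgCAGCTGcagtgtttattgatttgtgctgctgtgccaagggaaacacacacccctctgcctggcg

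The TWIST2 promoter held no CANNTG, whereas 68.7% of the 35116 promoters of the table held at least 1. Of the 7 ZEB1 promoters, 4 held a CANNTG. The form CAGGTG, which reads CACCTG on the opposite strand and is known for E proteins and for SNAI and ZEB proteins, stood in 2 of the 7, against 20.6% of all promoters. The first ZEB1 promoter printed above held 3 such copies.

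CAGCTG, the letters known for myogenic factors, stood in 2 of the 7, among them the other printed promoter, against 17.9% of all promoters. Of the letters known for TWIST proteins, CAGATG, with CATCTG on the opposite strand, stood in 1 of the 7 (14.7% of all promoters). The other TWIST form, CATATG, stood in none (3.04% of all promoters). Each is a case of CANNTG, and no letters match more than 1 of them at the same place. These are matches of letters only. The promoters are in another build than the peaks, so no promoter was placed under a peak, and sequence at the peaks themselves was not analysed here.

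MSC had 8 MYF5 peaks, SNAI1 and SNAI2 had 2 each, and TWIST1, TWIST2 and ZEB1 had none. The genome was cut into 27585 tiles of 110 kb, the width of the MSC, SNAI1, SNAI2 and TWIST1 windows. Of these tiles, 22.5% held at least 1 MYF5 peak, 8.91% at least 2 and 0.221% at least 8. Tiles are not centred on genes, so they describe the list and not other genes. At the 190 kb width of the TWIST2 window 32.1% of 15976 tiles held a MYF5 peak, and at the 320 kb width of the ZEB1 window 42.5% of 9488 tiles did.

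Acetylated regions were listed in all 6 windows in RH18 and in all but TWIST1 in RD. MSC had 10 RH18 regions covering 7109 bp and 16 RD regions covering 8339 bp. SNAI2 had 6 RH18 regions over 3531 bp and 11 RD regions over 4171 bp. SNAI1 had 7 RH18 regions over 3177 bp and 2 RD regions over 775 bp. ZEB1 had 3 regions in each line, TWIST2 had 2 in RH18 and 1 in RD, and TWIST1 had 1 in RH18 alone. Of the 110 kb tiles, 41.1% held an RH18 region and 38.0% an RD region. At 190 kb the shares were 51.1% for RH18 and 48.3% for RD, and at 320 kb they were 60.8% for RH18 and 58.2% for RD. As many regions as at MSC, or more, were held by 4.1% of tiles in RH18 and 1.02% in RD. For SNAI2 the shares were 9.41% in RH18 and 2.71% in RD, and for SNAI1 they were 7.59% in RH18 and 28.6% in RD. All these counts are of separate entries as listed. With entries within 1000 bp joined, the 6 windows held 19 RH18 and 12 RD regions, in place of 29 and 33. Of the joined regions, 8 in RH18 and 7 in RD overlapped one of the other line. Shares of the whole lists at that setting were not computed.

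**Figure D1:**
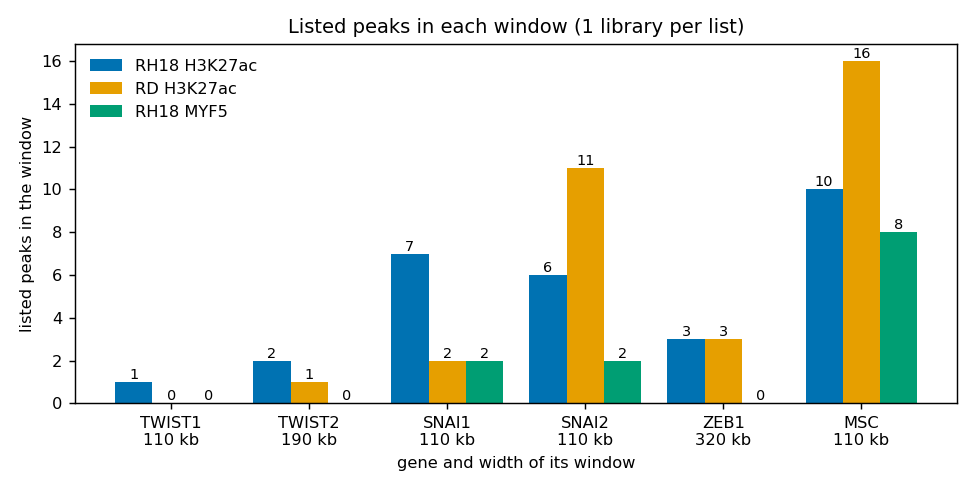
Number of listed peaks (vertical axis) in the window of each gene (horizontal axis, with the width of the window in kb), for RH18 H3K27ac, RD H3K27ac and RH18 MYF5, 1 library each. MSC has the most peaks in each list (10, 16 and 8), and the MYF5 bars are at 0 for TWIST1, TWIST2 and ZEB1.

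Heights below are the authors' fold enrichment over local background, and the tags (sequenced reads counted at the summit) recovered from fold and p-value. The range after a tag count is its exact Poisson 95% interval, which covers counting error only. The scale of a tag differed between the lists and library depth is not known, so neither folds nor tags were compared between RH18 and RD. A region missing from a list means that no entry was listed there, and each list had its own weakest p-value.

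The bHLH repressor MSC carried the highest acetylation fold of the 6 loci in each list. In RH18 the top region (chromosome 8, 72753430 to 72755035) had a fold of 113, rank 36 in its list, on 314 tags (280.2 to 350.7). Beside it, 72755475 to 72757074 had a fold of 74.6 on 366 tags (329.5 to 405.5), and 72757599 to 72758389 a fold of 68.96 on 191 tags (164.9 to 220.1). The share of the RH18 list with a lower fold was 99.9%, 98.5% and 97.7% for these regions, which are neighbours at the centre of the window.

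In RD the same stretch was also the highest of the window. The region from 72757244 to 72758897 had a fold of 25.9, rank 847 in its list, on 183 tags (157.4 to 211.5). The region from 72756842 to 72757121 had a fold of 19.3 on 135 tags (113.2 to 159.8), and that from 72755309 to 72756708 a fold of 15.9 on 219 tags (191 to 250). The shares of the RD list with a lower fold were 98.0%, 93.4% and 88.3%. The RD counterpart of the top RH18 region (72753458 to 72755057) stood lower in its list. It had a fold of 10.6 on 132 tags (110.4 to 156.5), and 70.4% of the RD list had a lower fold. So the centre of the MSC window held high regions of both lists, but the highest by fold was at a different place in each. By tags the highest were the RH18 region from 72755475 (366 tags) and the RD region from 72755309 (219 tags). These 2 overlapped, with summits 27 bp apart. Background was 4.42 times the lowest of the RD list under that RD region and 1.51 times under the RD region of highest fold. The part of background in the order by fold was not tested.

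Away from the centre the lines had different regions. Toward lower positions RH18 had a run of 4 regions with no RD counterpart (72742451 to 72746901), with folds of 12.5 to 51.1 and 44 to 183 tags, and this run held 2 MYF5 summits. Toward higher positions RD had a run of 7 regions with no RH18 counterpart (72762008 to 72774648), with folds of 5.77 to 11.1 and 31 to 110 tags, and no MYF5 summit. Both outermost regions of the window were listed in both lines, with RH18 summits at 72740670 and 72779822. At the first, 40.9% of the RH18 list and 32.2% of the RD list had a lower fold. The second was low by fold, with 11.6% of the RH18 list and 3.6% of the RD list lower, and an RD −log10 q of 2.93. It had 83 tags in RH18, above the list median of 57, and 39 in RD, below the list median of 85. Of the MSC regions, 6 of 10 in RH18 overlapped an RD region and 7 of 16 in RD overlapped an RH18 region. In the whole lists 45.1% of RH18 regions and 60.0% of RD regions did. By bases, 64.2% of the RH18 coverage lay under RD regions and 54.7% of the RD coverage under RH18 regions.

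Joined across gaps of up to 12.5 kb, 9 RH18 regions of MSC formed a 20.6 kb domain that ranked 288 of 18842 by summed fold times width. All 16 RD regions formed a 39.4 kb domain that ranked 244 of 16671. Both domains held all 8 MYF5 summits of the window. Ranks of lists of unequal length and threshold are given side by side and show no change between lines.

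**Figure D2:**
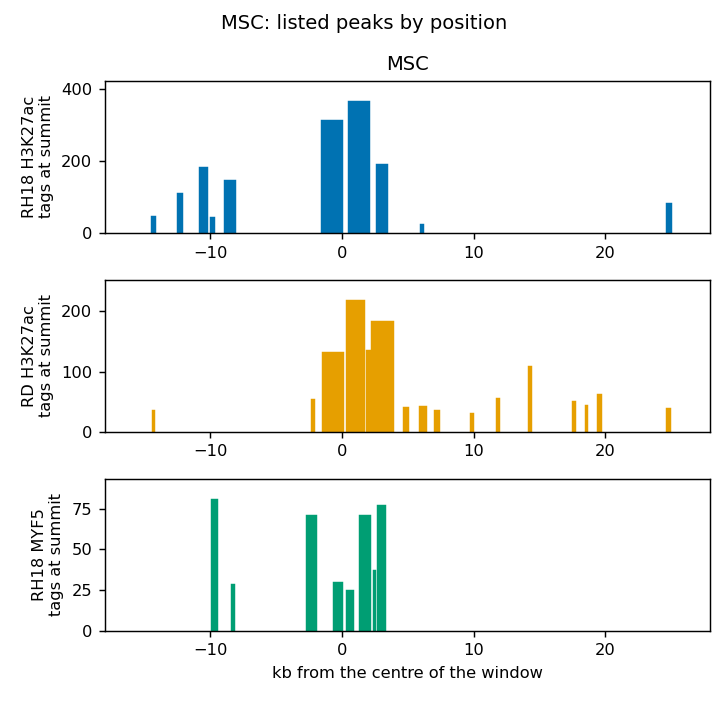
Listed peaks of the MSC window by distance from its centre (horizontal axis, kb) and tags at the summit (vertical axis, each panel with its own scale), for RH18 H3K27ac, RD H3K27ac and RH18 MYF5; a bar spans the width of a peak and the axis covers the part of the window that holds peaks. The central block is tall in both lines, the run at lower positions is in RH18 only and the run at higher positions in RD only, and the 8 MYF5 peaks reach up to 81 tags.

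The MYF5 peaks of MSC formed a close group. The first stood at 72745086 to 72745493, inside the RH18 run, with a fold of 18.1 on 81 tags (64.3 to 100.7). The second (72746588 to 72746763) was lower, with a fold of 9.90 on 29 tags (19.4 to 41.6). The nearest RD regions lay 4466 and 5896 bp from these summits, in that order.

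The other 6 summits lay within the central block, between 72752822 and 72758078. Neighbouring summits there were 688 to 2044 bp apart. The highest 2 stood at its flanks, one at 72757649 to 72758279 with a fold of 25.5 on 77 tags (60.8 to 96.2), the other at 72752250 to 72753030 with a fold of 23.5 on 71 tags (55.5 to 89.6). Between them, 72756313 to 72757121 had a fold of 9.54 on 71 tags (55.5 to 89.6), on a background of 3.89 times the lowest of the MYF5 list. The lowest folds of the window, 5.18 and 5.69, belonged to the peaks from 72754358 and from 72755298, with 30 tags (20.2 to 42.8) and 25 tags (16.2 to 36.9). All 8 summits had at least 3 other MYF5 summits within 10 kb, which held for 8 of the 12 summits of the 6 windows and for 7.67% of the whole list.

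At MSC, 6 of 8 summits were in RH18 regions and 6 in RD regions, with 4 in both. Of the whole MYF5 list, 55.2% of summits were in RH18 regions, 39.9% in RD regions and 33.5% in both. One of the 2 outside RH18 regions was that at 72752822, 607 bp from the nearest RH18 region and inside a narrow RD region (72752665 to 72752891, 54 tags). The other, at 72757390, sat in a gap of the RH18 list with regions 315 and 208 bp to its sides, and inside the top RD region. No MYF5 summit of the window lay outside regions of both lines, as 38.4% of the list did. For the summit at 72752822 this rests on the narrow RD region alone, which had a −log10 q of 9.76. With only entries of −log10 q of at least 10, that summit would lie outside regions of both lines.

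SNAI2 also had its highest acetylation at the centre of the window in both lines. In RH18 the region from 49833572 to 49834815 on chromosome 8 had a fold of 79.4, rank 523, on 326 tags (291.6 to 363.4), and 98.9% of the RH18 list had a lower fold. The next by fold was 49835767 to 49836344, with 33.8 on 93 tags (75.1 to 113.9). In RD the highest by fold was 49836245 to 49837002, with 15.9 on 92 tags (74.2 to 112.8), rank 4993. The most tags in RD were in 49834112 to 49834793, with 184 (158.4 to 212.6) and a fold of 11.0 over a background of 5.72 times the lowest of its list.

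The SNAI2 entries had a median width of 474 bp in RH18 and 257 bp in RD, where the whole lists had 474 and 358 bp. At MSC the medians were 509.5 bp in RH18 and 268.5 bp in RD. The wide RH18 region overlapped 2 RD entries, and 4 of 6 RH18 regions (45.1% of the whole list) and 5 of 11 RD regions (60.0% of the whole list) were shared. Distal regions differed between the lists. RH18 had a pair without RD counterpart at 49814743 to 49817071, of fold 11.9 and 27.6 on 32 and 76 tags. RD had a run of 4 without RH18 counterpart at 49823806 to 49831563, with folds of 6.68 to 14.3 and 42 to 94 tags. Neither held a MYF5 summit. As joined domains, 4.3 kb of RH18 ranked 1527 of 18842 and 13.2 kb of RD ranked 1052 of 16671.

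Both MYF5 peaks of SNAI2 lay in the central block, with summits 2291 bp apart. The higher (49835984 to 49836385) had a fold of 26.8 on 81 tags (64.3 to 100.7), and 94.5% of the MYF5 list had a lower fold. This is the highest MYF5 fold of the 6 loci. Its summit lay inside the RH18 region from 49835767 and between RD regions 133 and 34 bp to its sides. The lower (49833816 to 49834422) had a fold of 10.6 on 63 tags (48.4 to 80.6). Its summit lay inside the highest RH18 region and inside an RD region (49833694 to 49833980). That RD region had a fold of 5.00 over a background of 10.97 times the lowest of its list. Of the RD list, 11.9% had a lower fold.

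The highest fold at SNAI1 was below that at SNAI2 within each list. Its 7 RH18 regions had folds from 4.43 to 19.3 and its 2 RD regions 4.26 and 4.53. The highest in RH18 (chromosome 20, 48552897 to 48553523) had 135 tags (113.2 to 159.8), and its RD counterpart (48552980 to 48553584) had 179 tags (153.7 to 207.2) over a background of 15.7 times the lowest of the RD list. These lie at the edge of the window, 2.4 kb inside it or a little more, and the next protein-coding gene on that side in RefSeq is RNF114, a ubiquitin ligase. Gene positions in hg19 were not used, so the regions were not assigned to either gene.

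The remaining 5 RH18 regions of the SNAI1 window, from 48599556 to 48650395, had no RD counterpart. They held 35 to 51 tags at folds of 5.41 to 12.2, and included the widest of the window (48646191 to 48646985, 795 bp, 51 tags). The first of these (48599556 to 48599911, 46 tags, 33.7 to 61.4) held a MYF5 summit, with 45971 bp to the closest RD entry.

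The MYF5 peaks of the SNAI1 window stood 46621 bp apart. The one at 48599515 to 48599733 had a fold of 13.99 on 60 tags (45.8 to 77.2), above 70.8% of the list, in the RH18 region just named. The one at 48552930 to 48553109 had a fold of 7.17 on 53 tags (39.7 to 69.3), above 10.5% of the list, in the regions of both lines at the window edge.

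**Figure D3:**
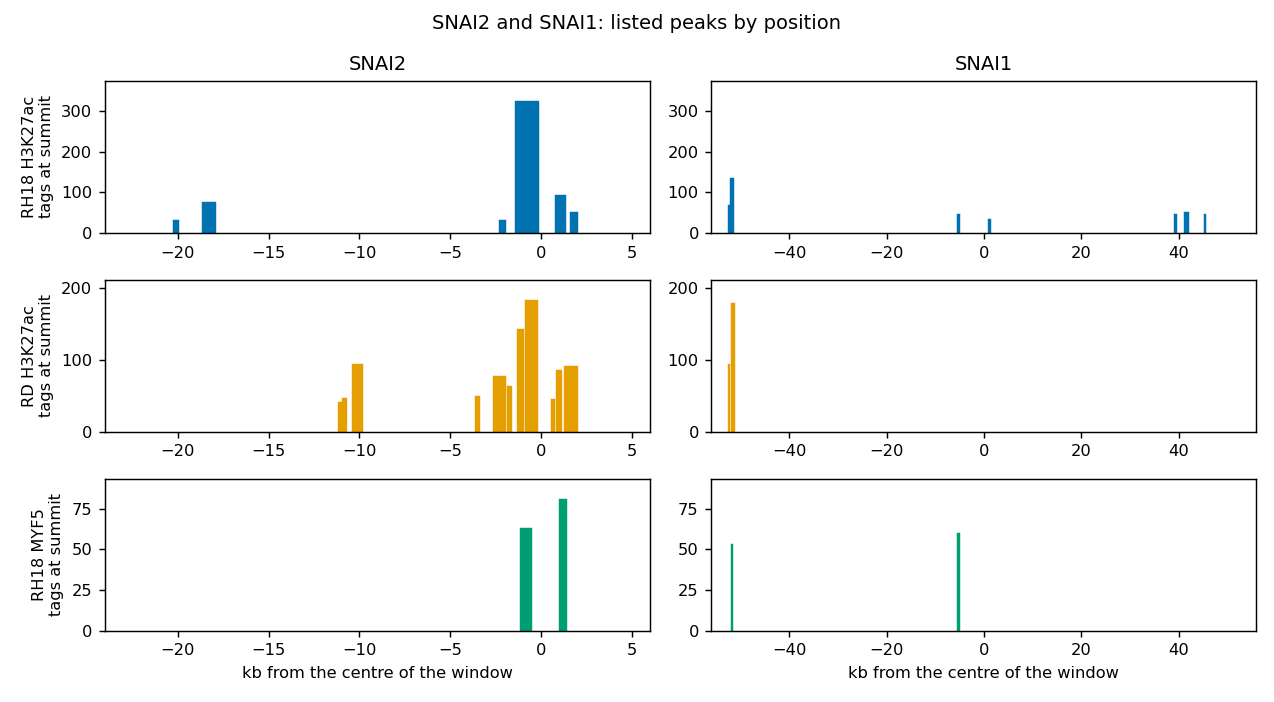
Listed peaks of the SNAI2 and SNAI1 windows by distance from the window centre (horizontal axis, kb; only the part with peaks for SNAI2) and tags at the summit (vertical axis, 1 scale per row), for RH18 H3K27ac, RD H3K27ac and RH18 MYF5. SNAI2 has a central block in both lines with both MYF5 peaks, while the RD bars of SNAI1 stand only at the edge of the window.

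The TWIST genes had no MYF5 peak and differed in acetylation, with a high RH18 region at TWIST2 only. TWIST1 had 1 RH18 region (chromosome 7, 19156251 to 19156527) with a fold of 6.14 on 29 tags (19.4 to 41.6), and 6.7% of the RH18 list had a lower fold. RD had no entry in the window. The nearest entry outside the window lay 538.2 kb from its edge in RH18 H3K27ac, 538.1 kb in RD H3K27ac and 538.4 kb in MYF5, all at 1 place from 19748096 on. The TWIST1 region had no other listed peak nearer than that in any of the 3 lists.

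At TWIST2 RH18 had a wide region (chromosome 2, 239772487 to 239774196, 1710 bp) with a fold of 38.7 on 185 tags (159.3 to 213.7), and 87.3% of the RH18 list had a lower fold. It was the widest RH18 region of the 6 windows. The RD entry inside it (239773155 to 239773491) had a fold of 2.64 on 103 tags (84.1 to 124.9), and 0.1% of the RD list had a lower fold. The background under that RD entry was 15.7 times the lowest of its list, against 2.27 times under the RH18 region within its own list. The part of background in the low RD fold was not tested. A second RH18 region (239859899 to 239860496) had a fold of 8.68 on 23 tags (14.6 to 34.5) with 86407 bp to the closest RD entry. The MYF5 summit nearest to the wide region was 375393 bp away.

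ZEB1 had 3 regions in each line within a 2.6 kb stretch of its 320 kb window. In RH18 their folds were 7.12, 9.77 and 4.74, on 33, 34 and 33 tags. In RD their folds were 8.06, 4.99 and 6.39, on 85, 48 and 47 tags. The regions start at 31607454, 31608216 and 31609063 on chromosome 10 in RH18, and at 31607548, 31608438 and 31609083 in RD. All 3 overlapped their counterparts, and their summits were 20, 5 and 3 bp apart between the lines. By bases, 42.2% of the RH18 coverage lay under RD regions and 92.0% of the RD coverage under RH18 regions. In RH18 all 3 were in the lower part of the list, with 2.0 to 30.5% of the list at a lower fold, and in RD the shares were 11.8 to 50.5%. The nearest MYF5 summit was 183968 bp from the closest of the RH18 regions. Just outside the window, 21.4 kb beyond its edge at 31891397 to 31893643, RH18 had a region of fold 46.5 with 252 tags, with an RD region (fold 9.09) and a MYF5 peak (fold 7.13) at the same place. The ZEB1 promoters shown above, with their E-box letters, belong to a locus without a listed MYF5 peak within the window.

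**Figure D4:**
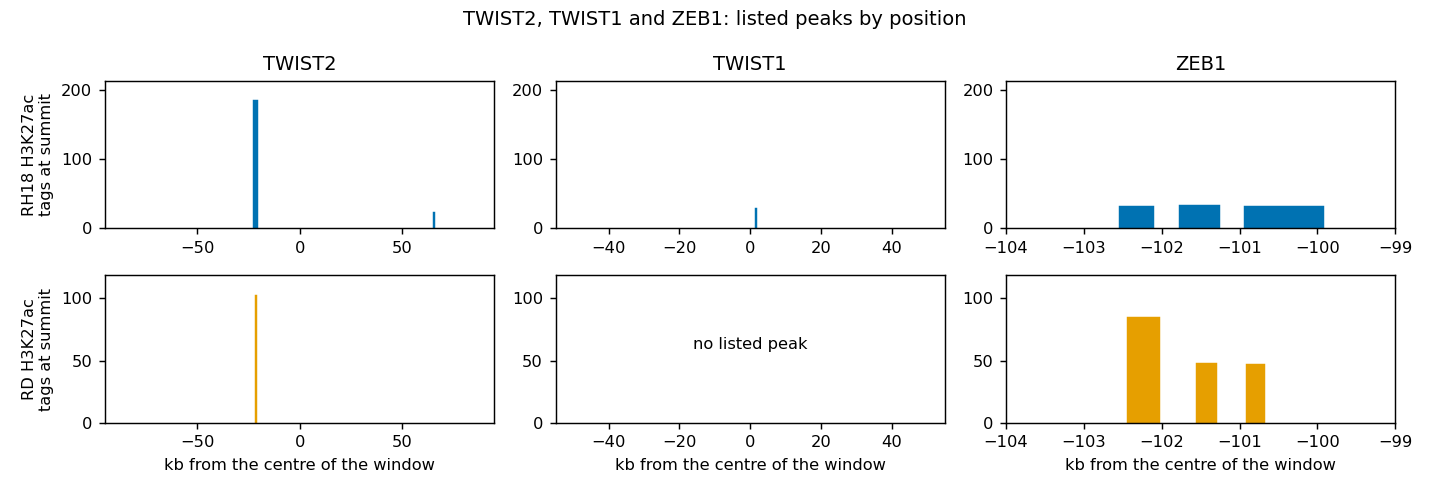
Listed H3K27ac regions of the TWIST2, TWIST1 and ZEB1 windows by distance from the window centre (horizontal axis, kb; for ZEB1 only the 5 kb stretch with regions) and tags at the summit (vertical axis, 1 scale per row), RH18 above RD. The TWIST2 region of 185 tags is the tallest in RH18, TWIST1 has no RD entry, and ZEB1 has 3 regions in each line; MYF5 had none in these windows.

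Over all 6 windows, 16 of 29 RH18 regions (55.2%, exact Clopper-Pearson 95% interval 35.7 to 73.6%) overlapped an RD region, against 45.1% of the whole RH18 list. Of the RD regions, 18 of 33 (54.5%, 36.4 to 71.9%) overlapped an RH18 region, against 60.0% of the whole RD list. Both shares are near those of the whole lists, whose values lie inside the intervals. With only entries of −log10 q of at least 10, the RH18 share was 32.1%, against 36.9% of the whole list. When an overlap had to cover 50% of both regions, the RH18 share was 27.6% (25.6% of the whole list) and the RD share 24.2% (27.5% of the whole list). The shared RH18 regions had a median of 75.5 tags against 46 for the unshared, and the shared RD regions 93.5 against 50. In the whole lists the medians were 95 against 42 tags in RH18 and 109 against 59 in RD.

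Where regions were shared, their summits stood at nearly the same base. In all 16 shared RH18 regions the nearest RD summit lay within 100 bp, with a median of 24.5 bp and a range of 0 to 93 bp. In the whole list this held for 74.4% of 20907 shared regions, with a median of 43 bp. At MSC the highest RH18 summit (72754555) and its RD partner (72754560) were 5 bp apart. The limit of 100 bp was chosen after the values were seen.

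RH18 regions contained 10 of the 12 MYF5 summits (83.3%, 51.6 to 97.9%), against 55.2% of the whole MYF5 list. Inside an RD region lay 8 (66.7%, 34.9 to 90.1%), against 39.9%. Without entries of raised background, described last and added as a setting after seeing the data, it was 4 of 12 (33.3%), against 25.8% of the whole list at that setting. Regions of both lines held 6 (33.5% of the list) and none lay outside regions of both, where 38.4% of the list did. By the exact interval, 0 of 12 allows a share of up to 26.5%. The 0 also depends on 1 narrow RD region at MSC with a −log10 q of 9.76, and would not hold at a −log10 q of at least 10. Within 500 bp of an RH18 region lay 11 (72.1% of the list), and within 500 bp of an RD region 9 (62.9%). Summits of 1 locus share their surroundings and 8 of the 12 belong to MSC, so the intervals are too narrow. At SNAI1 and SNAI2 together, RH18 regions contained 4 of 4 summits and RD regions 2 of 4. Those 2 RD regions were low in their list by fold, with 4.53 at SNAI1 and 5.00 at SNAI2. They were not low by tags, with 179 and 143 in that order, above the RD list median of 85. Their backgrounds were 15.7 and 10.97 times the lowest of the RD list, in that order.

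Seen from the acetylated regions, 9 of 29 in RH18 (31.0%, 15.3 to 50.8%) held a MYF5 summit, against 12.0% of the list. In RD 6 of 33 (18.2%, 7.0 to 35.5%) did, against 9.71%. Neighbouring regions of 1 locus share their surroundings, so these intervals are too narrow as well. Without the MSC window, a setting added after seeing the data, the shares were 4 of 19 in RH18 (21.1%) and 2 of 17 in RD (11.8%). The RH18 regions with MYF5 were 5 at MSC, 2 at SNAI2 and 2 at SNAI1. The RD regions with MYF5 were 4 at MSC and 1 each at SNAI2 and SNAI1.

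**Figure D5:**
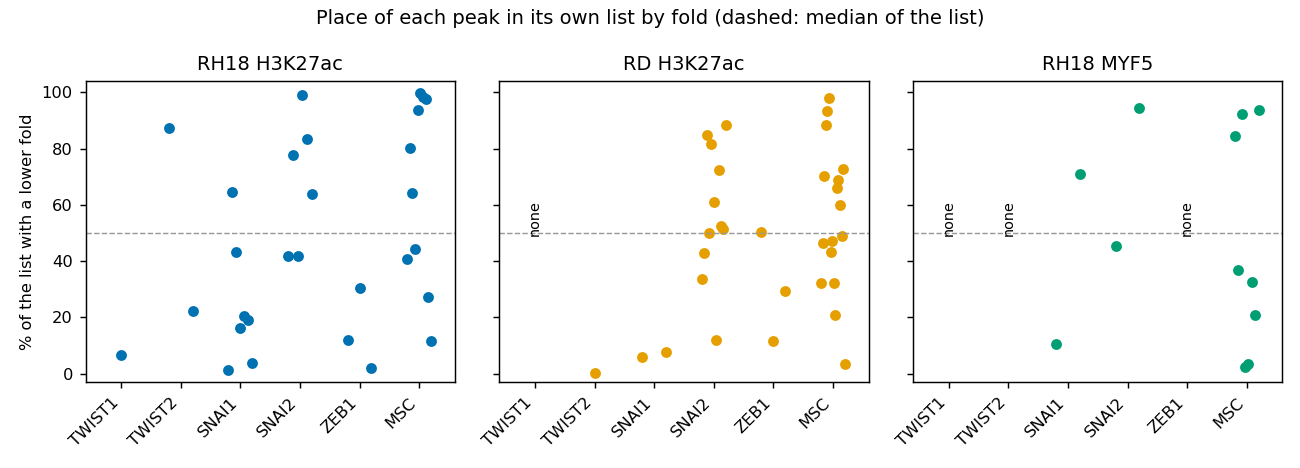
Share of its own list with a lower fold (vertical axis, percent) for each listed peak, by gene (horizontal axis) and list; each point is 1 peak, the dashed line is the list median, and "none" marks a window without an entry. MSC and SNAI2 have points near the top in all lists, while the RD points of TWIST2 and SNAI1 lie under 10%.

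The local background that the peak caller used differed between loci. At least 4 times the lowest of the list was reached by 4 of 29 RH18 regions (10.1% of the whole list), 6 of 33 RD regions (31.9%) and none of the 12 MYF5 peaks (4.91%). In RD these were the single TWIST2 entry, both SNAI1 entries, 2 at SNAI2 and 1 at MSC. In RH18 they were 2 at SNAI1, at 9.10 and 4.86 times, and 2 at MSC, at 5.31 and 6.82 times.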

How the data were processed

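Peak lists of 3 ChIP-seq libraries were used, 1 list per library: H3K27ac and MYF5 in RH18 and H3K27ac in RD. Cells were fixed in 1% formaldehyde for 12 minutes, per the labels' protocols. Per the submitters' processing notes BWA 0.7.10, MACS2 2.1.0 and build hg19 were used, with no role or settings given; the control sample and the threshold are not given in the sources used here. For each peak the authors' columns give its summit, the fold enrichment there (a ratio to local background), and the −log10 p-value and −log10 q-value of that summit. The lowest −log10 p-value was 7.09 in RH18 H3K27ac, 5.0 in RD H3K27ac and 9.09 in MYF5.

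Library totals are not given. Tags and background at each summit were recovered from the deposited fold, as pileup plus 1 over background plus 1, and the p-value, as the Poisson tail. The most frequent background of a list was taken as its lowest, and solutions below it were dropped. A tag was worth 0.832 pileup units in RH18 H3K27ac, 0.273 in RD H3K27ac and 0.658 in MYF5, and tags were whole within 0.1 for 100.0% of peaks in each list. More than 1 solution existed for 7.6, 45.3 and 18.5% of these lists, in that order, and the nearest whole tag was taken; among peaks with 1 solution 100.0% were whole. The recovery was tested on peaks simulated with the same formulas, which does not test the formulas themselves.

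Regions overlapping by at least 1 bp were called shared, and MYF5 peaks were placed by their summit. A distance is the number of bases between 2 features. Groups of 1 library allow no test between lines, so values are descriptions beside the whole list. Every MYF5 peak was named up to 5 a window, then the highest, with the highest and widest regions; peaks named beyond that were chosen after their values were seen. The members and lists were chosen with earlier results of these data known. A set of related genes planned for comparison was not analysed here, since gene positions in hg19 were not used; gene names of neighbours and promoter sequences are from RefSeq (GRCh38.p14). Intervals cover counting error only. Computation used scipy 1.17.1, numpy 2.4.6 and pandas 2.3.3 under Python 3.11.15, and plots matplotlib 3.10.9.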

Additional observations from a re-analysis of the deposited data

How the results depend on the processing

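Of 72 alternative values of the 9 shares and counts over the windows, 62 stayed within the interval of the reported value, or within 1.5 times it for a count, and 10 moved. The intervals are wide, for example 34.9 to 90.1% for MYF5 summits inside RD regions, so staying within one is weak evidence of stability. Requiring the summit inside the window changed no value. A −log10 q of at least 10 left 19 RD regions in place of 33, and 32.1% of RH18 regions then overlapped an RD region in place of 55.2%; the setting removed 14 RD regions but 1 RH18 region. An overlap of 50% of both regions gave 27.6% shared in RH18 and 24.2% in RD. Counting MYF5 summits within 500 bp, 36.4% of RD regions held one, in place of 18.2% (22.0% of the whole list at that setting). Settings added after seeing the data moved the rest. Without entries of raised background 33.3% of MYF5 summits lay inside RD regions, since 3 RD regions with summits left the list. Without the MSC window 19 RH18 regions, 17 RD regions and 4 MYF5 peaks remained, and 100% of those summits lay inside RH18 regions. No paired analysis was possible because each group held 1 library, and no replicate could be left out. The planned search for E-boxes at MYF5 summits was not run, because no sequence of hg19 was used. The lists ended at different thresholds and depth is unknown, which limits what a missing entry shows.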
